A study of Homo sapiens with 9 samples.

Results

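The epithelial-mesenchymal transition (EMT) is the program by which an epithelial cell gives up its cell-to-cell contacts and takes on the shape and motility of a mesenchymal cell, and its reversal is called the mesenchymal-epithelial transition. The expression of 10 EMT genes was followed in PC-3 prostate cancer cells, namely CDH1, ESRP1, CDH2, VIM, FN1, SNAI1, SNAI2, ZEB1, ZEB2 and TWIST1. The 10 genes were taken by symbol from the 60617 Ensembl gene rows of the count tables, and 1 row was found for each. All 10 passed the filter on low counts, which left 18532 genes for testing.

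RNA-seq had been done on 9 libraries of PC-3, a line established from a bone metastasis of prostate cancer. The 3 groups of 3 libraries were control cells, which according to the methods of the study received the vehicle, cells treated with decitabine (1 µM), and cells treated with decitabine (1 µM) together with S-adenosylmethionine (SAM, 200 µM). Decitabine is a cytidine analog that is built into DNA and traps DNA methyltransferases, so that methylation is lost as cells divide, and SAM is the methyl donor of the cell. RNA was taken after 5 days, and libraries of SAM alone were not analysed here. All groups were 1 cell line without a genetic change by the study. Nothing in the labels says whether the 3 replicates of a group were separate cultures, so the p-values measure only the spread between these libraries, which may be technical.

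In the textbook view of EMT, transcription factors of the SNAI, ZEB and TWIST families bind E-boxes in the promoters of epithelial genes and shut them down, above all CDH1, the gene of the adhesion protein E-cadherin. CDH2 (N-cadherin), VIM (the intermediate filament vimentin) and FN1 (the matrix protein fibronectin) are used as marks of the mesenchymal state, and ESRP1 is an RNA-binding protein that sets the epithelial splicing pattern. Several promoters of this network, that of CDH1 among them, are known to be silenced by DNA methylation in carcinoma cells. DNA methylation was not part of the values used here.

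Since decitabine leads to a loss of DNA methylation, the start regions of the mesenchymal markers are shown first with each CpG in capitals. RefSeq promoter windows (250 bases before to 50 bases after the start, GRCh38.p14) were at hand for 5 of the 10 genes, CDH2, VIM, FN1, ZEB1 and ZEB2. The 3 sequences below are the bases before the start that lie outside every exon of the gene, read 5′ to 3′ on the strand of the gene, for the matrix gene and the cadherin that rose with treatment and for the filament gene that fell.
FN1 (chr2:215436074-215436318, minus strand): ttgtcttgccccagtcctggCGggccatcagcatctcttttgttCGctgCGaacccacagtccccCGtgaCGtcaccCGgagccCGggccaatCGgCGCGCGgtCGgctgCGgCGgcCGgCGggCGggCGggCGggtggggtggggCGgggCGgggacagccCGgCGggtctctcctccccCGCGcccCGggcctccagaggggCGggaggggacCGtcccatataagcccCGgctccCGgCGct
CDH2 (chr18:28177131-28177380, minus strand): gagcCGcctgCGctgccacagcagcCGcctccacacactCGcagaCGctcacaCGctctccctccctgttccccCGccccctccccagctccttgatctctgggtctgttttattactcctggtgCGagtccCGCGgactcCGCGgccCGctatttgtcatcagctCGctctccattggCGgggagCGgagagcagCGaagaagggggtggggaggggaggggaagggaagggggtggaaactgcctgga
VIM (chr10:17227991-17228240, plus strand): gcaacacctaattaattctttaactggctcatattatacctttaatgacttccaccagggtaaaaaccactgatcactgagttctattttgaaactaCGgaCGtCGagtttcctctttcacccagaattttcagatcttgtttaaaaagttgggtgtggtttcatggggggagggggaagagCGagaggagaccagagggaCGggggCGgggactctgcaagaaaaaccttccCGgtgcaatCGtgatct
The 245 bases of FN1 held 31 CpG sites, the 250 bases of CDH2 held 17 and the 250 bases of VIM held 8. Among all 35116 RefSeq windows of 300 bases the median was 14 CpG sites with quartiles of 4 and 28. The whole FN1 window held 38, more than 90.1% of all windows, and the CDH2 window held 23, more than 64.2% of them. The windows at the main start of ZEB1 (17), ZEB2 (14) and VIM (10) lay nearer the median. These values are for main starts, while the other ZEB1 windows held 7 to 35 CpG sites and the other CDH2 window 4. The E-box that SNAI and ZEB proteins are known to prefer, CACCTG or CAGGTG, which read as each other on the opposite strand, was searched in the same windows. It occurred 3 times in the window of the main ZEB1 start and in none of the windows at the main start of CDH2, VIM, FN1 and ZEB2, while 20.6% of all windows held at least 1. The looser E-box CANNTG, which includes the former, was in 68.7% of all windows. These matches are letters in a window and say nothing about binding or about methylation in these cells.

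Total counts ran from 21934307 to 22489684 per library and did not differ much between the groups. The scaling factors did differ by group, from 0.895 to 0.902 in the control libraries and from 1.03 to 1.08 in the treated ones. The markers for an epithelial cell were present throughout, with EPCAM, KRT8, KRT18 and KRT19 together at 709 to 954 CPM. CPM are counts relative to the library total multiplied by its scaling factor, which came from edgeR's TMM method. KLK3, the prostate-specific antigen gene, had 0 counts in every library, as is known of PC-3. CTNNA1, the alpha-catenin that links E-cadherin to actin and that PC-3 is known to lack, averaged 1.38 to 2.32 CPM in the 3 groups, against 234.4 to 336.1 CPM for its partner CTNNB1.

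Against the control, treatment moved the EMT genes in both directions at once. With decitabine alone, 6 of the 10 genes rose (CDH1, ESRP1, CDH2, FN1, SNAI1 and ZEB2), 3 fell (VIM, SNAI2 and ZEB1), and TWIST1 did not pass the test. With decitabine and SAM the counts were again 6 higher, 3 lower and 1 not called, with each gene on the same side; both contrasts use the same control libraries. These counts stand against a background in which 36.3% of all genes tested were called higher and 32.5% lower with decitabine, and 35.9% and 31.3% with the combination (edgeR's quasi-likelihood test, Benjamini-Hochberg adjusted p under 0.05). Control and treated libraries were fully apart for 9 of the 10 genes in either contrast, but so they were for 72.9% and 71.6% of all genes. The median log2 fold change of the 10 genes was 0.93 with decitabine and 0.82 with the combination, beside medians of 0.03 and 0.05 over all genes. Since these are bulk samples, a change in the share of cells that carry a transcript and a change in RNA per cell cannot be told apart.

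**Figure D1:**
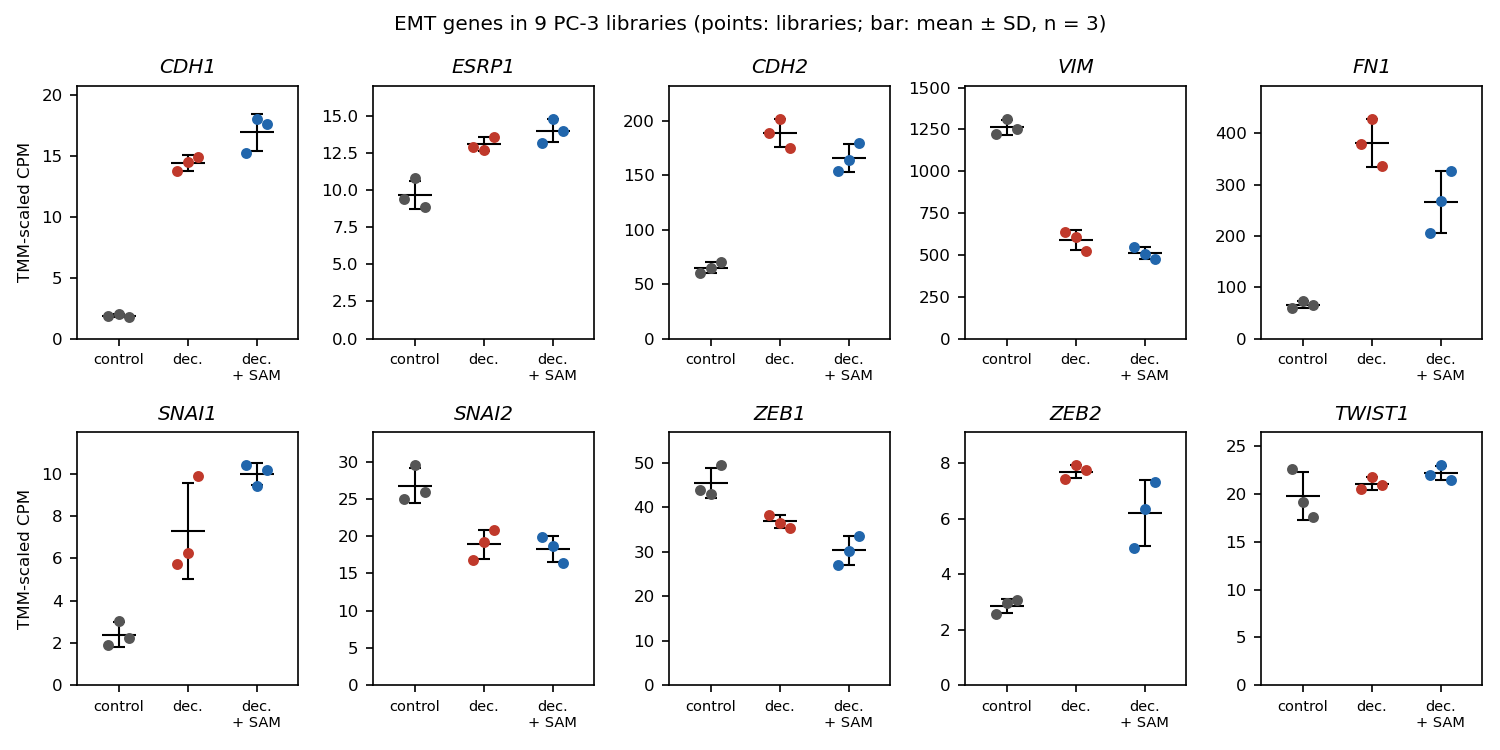
Level of the 10 EMT genes (y axes, TMM-scaled CPM from 0, a scale of its own for each gene) in control, decitabine (dec.) and decitabine with SAM (dec. + SAM) libraries of PC-3; points are libraries, the horizontal bar is the mean and the whisker the SD (n = 3). The treated libraries of CDH1 sit between 13.7 and 18 CPM, all above the controls at no more than 2.0, while those of VIM all lie below the controls and those of TWIST1 overlap them.

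CDH1 (ENSG00000039068, chr16:68737292-68835537), the cadherin of epithelial junctions, had the largest fold change of the 10 genes. The control libraries held 37, 40 and 36 counts (1.84, 2.0 and 1.78 CPM). The decitabine libraries held 323, 344 and 352 counts (13.7, 14.5 and 14.9 CPM), and the combination libraries 349, 409 and 414 counts (15.2, 18 and 17.6 CPM). The groups were thus 3 tight clusters with no overlap, although the control level was close to the bottom of what was measured. The rise was 7.65-fold with decitabine (log2 fold change 2.94 ± 0.13 SE, adjusted p = 2.97e-10) and 9.03-fold with the combination (3.17 ± 0.13, adjusted p = 1.41e-10). Only 9.74% and 8.07% of all genes changed by more in either direction. Between the treatments CDH1 was 0.24 ± 0.10 higher with SAM on the log2 scale, which did not pass the test (adjusted p = 0.134).

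ESRP1 (ENSG00000104413), the epithelial splicing factor, rose less. Its controls were at 9.38, 10.8 and 8.89 CPM, the decitabine libraries at 12.9, 12.7 and 13.6 CPM, and the combination libraries at 13.2, 14.8 and 14.0 CPM. All treated libraries lay above all controls. The rise was 1.35-fold with decitabine (log2 0.43 ± 0.11, adjusted p = 0.00249) and 1.45-fold with the combination (0.53 ± 0.11, adjusted p = 0.000512), which 59.1% and 51.2% of all genes exceeded. The treatments themselves overlapped for ESRP1 (difference 0.10 ± 0.10, adjusted p = 0.548).

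The 3 mesenchymal markers did not move as a group, since 2 rose and the most abundant fell. CDH2 (ENSG00000170558, chr18:27932879-28177946), the cadherin that is gained in EMT as E-cadherin is lost, was at 60.5, 64.3 and 70.3 CPM in the controls. It was at 188.9, 201.5 and 175.2 CPM with decitabine and at 153.7, 163.9 and 179.7 CPM with the combination. The controls stood far below both treatments, which overlapped each other. The rise was 2.90-fold with decitabine (log2 1.54 ± 0.08, adjusted p = 2.08e-09) and 2.55-fold with the combination (1.35 ± 0.08, adjusted p = 7.35e-09). The difference between treatments, -0.19 ± 0.08, did not pass the test (adjusted p = 0.136).

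FN1 (ENSG00000115414, chr2:215360440-215436073), the matrix glycoprotein that integrins bind, was at 60.2, 72.9 and 65.5 CPM in the controls. It reached 380.0, 428.2 and 335.7 CPM with decitabine and 204.9, 267.3 and 326.5 CPM with the combination. Every library of one group was apart from those of the others, with the combination in between and the most spread (266.2 ± 60.8 CPM, SD, n = 3). The rise against the control was 5.76-fold with decitabine (log2 2.53 ± 0.17, adjusted p = 3.95e-07) and 4.02-fold with the combination (2.01 ± 0.16, adjusted p = 2.02e-06). FN1 carried the most CpG sites of the 5 main-start windows described above, but CDH1, which rose more, had no window. A link between CpG number and the rise was not tested.

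VIM (ENSG00000026025, chr10:17228241-17237593), the filament protein of mesenchymal cells, fell. It was at 1220.2, 1313.0 and 1252.4 CPM in the controls, at 639.0, 608.4 and 523.5 CPM with decitabine and at 547.0, 507.4 and 476.4 CPM with the combination. All treated libraries were below all controls, and the treatments overlapped. The fall was 2.14-fold with decitabine (log2 -1.10 ± 0.09, adjusted p = 6.62e-08) and 2.47-fold with the combination (-1.31 ± 0.09, adjusted p = 1.27e-08). The transcript VIM-AS1, which overlaps VIM on the opposite strand, moved the other way, with 3.10 ± 0.23 CPM in the control, 5.72 ± 0.38 under decitabine and 6.50 ± 0.94 under both agents (SD, n = 3; log2 0.88 ± 0.16 and 1.07 ± 0.16, adjusted p = 0.000188 and 3.46e-05). VIM-AS1 was singled out after its values were seen. Whether the counting used strand is not given in the sources used here, so reads of the pair may not have been told apart, but VIM-AS1 had 57 to 169 counts per library where VIM had at least 11184.

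**Figure D2:**
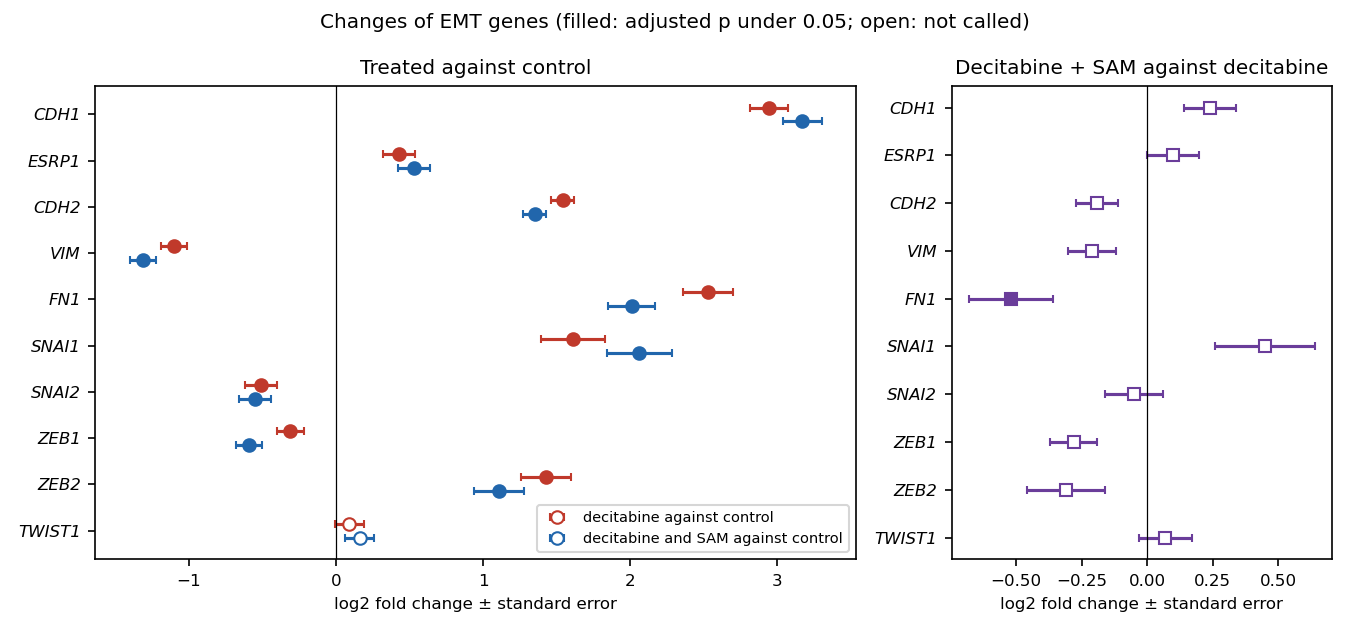
Log2 fold changes of the 10 EMT genes with standard errors (x axes), on the left for decitabine (red) and decitabine with SAM (blue) against control and on the right for the combination against decitabine alone; filled symbols passed an adjusted p of 0.05 in edgeR. CDH1 at 2.94 and 3.17 lies farthest to the right and VIM at -1.10 and -1.31 farthest to the left, and FN1 at -0.52 is the one filled symbol on the right; scaled by library size alone, ZEB1 with decitabine (-0.06) and FN1 on the right (-0.54) would be open, and TWIST1 on the left and ZEB1 on the right (-0.30) filled.

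The 5 transcription factors that drive EMT split in the same way. SNAI1 (ENSG00000124216, chr20:49982980-49988886), the founding member of the Snail repressors, was at 1.89, 3.05 and 2.22 CPM in the controls. It was at 5.75, 6.24 and 9.91 CPM with decitabine, the last of which stood apart from the others, and at 10.4, 9.42 and 10.2 CPM with the combination. The rise was 3.06-fold with decitabine (log2 1.61 ± 0.22, adjusted p = 2.00e-05) and 4.18-fold with the combination (2.06 ± 0.22, adjusted p = 1.76e-06). SNAI1 was 0.45 ± 0.19 higher in the combination than in decitabine alone, short of the test (adjusted p = 0.13), and without decitabine replicate 3 the difference was 0.73 and passed it (adjusted p = 0.0119).

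SNAI2 (ENSG00000019549, Slug), the paralog of SNAI1, went down where SNAI1 went up. The controls were at 25, 29.5 and 25.9 CPM, the decitabine libraries at 16.8, 19.2 and 20.8 CPM and the combination libraries at 19.9, 18.7 and 16.4 CPM. No treated library reached the lowest control. The fall was 1.42-fold with decitabine (log2 -0.51 ± 0.11, adjusted p = 0.000712) and 1.47-fold with the combination (-0.55 ± 0.11, adjusted p = 0.000375). The treatments overlapped fully (difference -0.05 ± 0.11, adjusted p = 0.803), and the sign of that difference turned to 0.03 without replicate 3 of either treatment.

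The ZEB repressors were opposed too. ZEB1 (ENSG00000148516, chr10:31318495-31529814) was at 43.9, 43.0 and 49.4 CPM in the controls, at 38.3, 36.5 and 35.4 CPM with decitabine and at 27.0, 30.2 and 33.6 CPM with the combination. The groups formed 3 steps without overlap. The fall was 1.24-fold with decitabine (log2 -0.31 ± 0.09, adjusted p = 0.00776) and 1.5-fold with the combination (-0.59 ± 0.09, adjusted p = 5.47e-05). The decitabine value was small beside the scaling, and with library size alone it was -0.06 (adjusted p = 0.591) where the median of all genes was 0.28. Between the treatments ZEB1 differed by -0.28 ± 0.09 (adjusted p = 0.0511), and 7 of 17 alternative settings put it under the threshold. The antisense ZEB1-AS1 had 77 to 133 counts where ZEB1 had 619 to 1000, and did not pass the test against the control (0.12 ± 0.17 and -0.28 ± 0.17, adjusted p = 0.55 and 0.155).

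ZEB2 (ENSG00000169554, chr2:144364364-144521057) was far lower than ZEB1 and rose. Its controls were at 2.58, 2.95 and 3.06 CPM, the decitabine libraries at 7.44, 7.93 and 7.75 CPM and the combination libraries at 4.96, 6.34 and 7.33 CPM. All treated libraries were above the controls, and those of the combination were below those of decitabine. The rise was 2.69-fold with decitabine (log2 1.43 ± 0.17, adjusted p = 3.19e-06) and 2.17-fold with the combination (1.11 ± 0.17, adjusted p = 3.98e-05). The difference between them, -0.31 ± 0.15, did not pass the test (adjusted p = 0.178).

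TWIST1 (ENSG00000122691, chr7:19020991-19117636), a basic helix-loop-helix factor, was at 22.6, 19.2 and 17.6 CPM in the controls, at 20.5, 21.8 and 20.9 CPM with decitabine and at 22, 23 and 21.5 CPM with the combination. The 3 groups overlapped, with the spread widest in the controls. The log2 fold changes of 0.09 ± 0.10 and 0.16 ± 0.10 did not pass the test (adjusted p = 0.425 and 0.154). Without control replicate 1 the value for the combination was 0.26 and passed it (adjusted p = 0.0295), and with library size alone both values passed (0.34 and 0.38), where the medians of all genes were 0.28 and 0.27.

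Compared per length of transcript, the order of the genes changed with treatment. In the controls VIM was at 243.8 CPM per kb of exon, 24.6 times the next gene. TWIST1 (9.91), SNAI2 (8.17) and CDH2 (7.58 CPM per kb) followed with overlapping neighbours, then ZEB1 (5.25), FN1 (3.85), ESRP1 (1.98), SNAI1 (1.40), CDH1 (0.308) and ZEB2 (0.110), each apart from the next. With decitabine VIM (114.0) was followed by FN1 (22.1) and CDH2 (22 CPM per kb), which overlapped. TWIST1 (10.6) stood alone after them, the levels of SNAI2 (5.76), SNAI1 (4.28) and ZEB1 (4.25) overlapped with their neighbours, and ESRP1 (2.68), CDH1 (2.36) and ZEB2 (0.295) closed the order. With the combination the order was VIM (98.6), CDH2 (19.3), FN1 (15.5), TWIST1 (11.1), SNAI1 (5.86), SNAI2 (5.58), ZEB1 (3.50), ESRP1 (2.87), CDH1 (2.79) and ZEB2 (0.237 CPM per kb). There CDH2 and FN1, SNAI1 and SNAI2, and ESRP1 and CDH1 overlapped. Despite its rise CDH1 thus remained second from last in all 3 groups, and VIM first. Whole-gene exon length was used, so the levels also depend on which transcripts were made.

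Ratios of counts within a library do not depend on the scaling between libraries. The ratio of CDH2 to CDH1 was 32.5, 31.8 and 39.1 in the controls, 13.8, 13.9 and 11.7 with decitabine and 10.1, 9.10 and 10.2 with the combination. On the log2 scale the means were 5.10 ± 0.16, 3.71 ± 0.14 and 3.29 ± 0.09 (SD, n = 3). The ratio of VIM to CDH1 was 655.4, 648.1 and 695.1 in the controls, 46.7, 41.9 and 35.1 with decitabine and 35.9, 28.2 and 27.0 with the combination, with log2 means of 9.38 ± 0.05, 5.36 ± 0.21 and 4.91 ± 0.22. Even so, CDH1 remained the minor partner of both ratios in every library.

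The ratio of ZEB1 to ESRP1, a repressor and a gene it is known to repress, was 4.67, 3.99 and 5.54 in the controls, 2.97, 2.87 and 2.6 with decitabine and 2.03, 2.04 and 2.40 with the combination. The log2 means were 2.23 ± 0.24, 1.49 ± 0.10 and 1.11 ± 0.13. All 3 ratios were lower in every treated library than in every control, and those of CDH2 to CDH1 and of ZEB1 to ESRP1 were lower in every combination library than in every decitabine library. Of the 9 comparisons, 8 gave p = 0.1 in a two-sided exact permutation test, which is the smallest p that 3 against 3 libraries allow (Benjamini-Hochberg adjusted p = 0.113), so no ratio could pass 0.05. The ninth, VIM to CDH1 between the treatments, overlapped (difference -0.44 on the log2 scale, exact permutation p = 0.2).

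**Figure D3:**
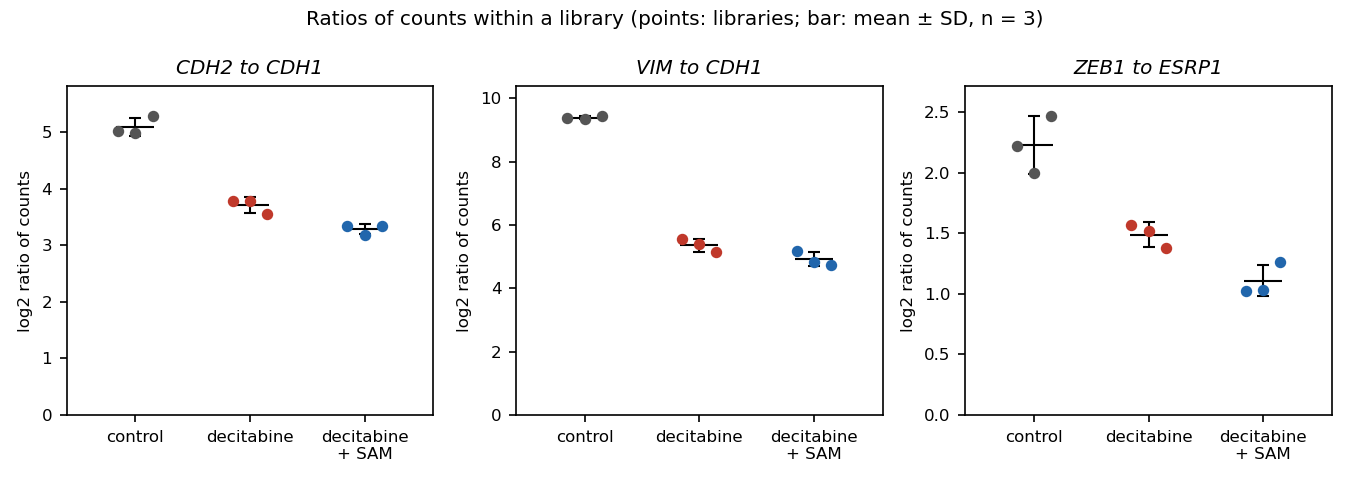
Ratios of counts of CDH2 to CDH1, VIM to CDH1 and ZEB1 to ESRP1 within each library (y axes, log2, from 0) in control, decitabine and decitabine with SAM; points are libraries, bars the mean and whiskers the SD (n = 3). The largest step is that of VIM to CDH1, from a mean of 9.38 in the controls to 5.36 and 4.91 in the treated groups.

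To ask what SAM added to decitabine, the combination was set against decitabine alone. Only FN1 passed the test, and it was 1.43-fold lower with SAM (log2 -0.52 ± 0.16, adjusted p = 0.0496), at 266.2 ± 60.8 against 381.3 ± 46.3 CPM (SD, n = 3). No gene was called higher by edgeR (2 at an unadjusted p under 0.05, CDH1 and SNAI1, and 0 by DESeq2 or by voom and limma) and 9 were not called, while 7.67% of all genes were called higher and 8.02% lower in that contrast. The libraries of both treatments were fully apart for CDH1, FN1, ZEB1 and ZEB2, that is for 4 of the 10 genes and for 34.0% of all genes. The FN1 call lay at the edge of the threshold. It was kept in 8 of 17 alternative settings (adjusted p from 5.61e-07 to 0.16), and the value ran from -0.36 without decitabine_SAM replicate 1 to -0.69 without decitabine_SAM replicate 3. It was lost without any one of the control libraries (adjusted p from 0.0606 to 0.076), without decitabine replicate 1 or 2 (0.125 and 0.16) and without decitabine_SAM replicate 1 or 2 (0.0812 and 0.145). CDH2 passed the test only without decitabine_SAM replicate 3 (adjusted p = 0.0478) and VIM only without decitabine replicate 3 (adjusted p = 0.0283).

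The same contrasts were read for 93 further genes of the EMT network, of which 83 passed the filter on low counts. Of these, 43 were higher and 24 lower with decitabine and 43 were higher and 22 lower with the combination, or 51.8% higher in both. Beside the backgrounds of 36.3% and 35.9% given above the share of higher genes was larger and that of lower genes, 28.9% and 26.5%, smaller. The lists were chosen with earlier results of these data known. Some of their genes also passed the low-count filter only through treated libraries. Part of this difference may therefore have been fixed in advance, and it was not tested. Between the treatments 2 were higher and 6 lower (2.41% and 7.23%), beside 7.67% and 8.02% of all genes.

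Among 18 genes of epithelial junctions and polarity, 10 rose and 3 fell with decitabine (55.6% and 16.7%, beside 36.3% and 32.5% of all genes). With the combination 11 rose and 4 fell (61.1% and 22.2%, beside 35.9% and 31.3%). The median log2 fold changes were 0.53 and 0.45. TJP3, CRB3 and MARVELD3 averaged 6.33, 5.67 and 1.0 counts in the controls and passed the low-count filter through treated libraries. A call of lower was thus hardly possible for these genes. CLDN7, a tight junction claudin, went from 1.16 ± 0.23 CPM in the control to 17.3 ± 1.69 with decitabine and 14.4 ± 1.94 with the combination (log2 3.89 ± 0.17 and 3.63 ± 0.17). TJP3, a scaffold of tight junctions, rose from 0.314 ± 0.113 to 2.72 ± 0.18 and 3.09 ± 0.14 CPM (3.09 ± 0.27 and 3.28 ± 0.26). The claudin CLDN4 fell from 383.6 ± 30.9 to 162.7 ± 8.9 and 147.7 ± 1.7 CPM (-1.24 ± 0.07 and -1.38 ± 0.08), and the desmosomal plakophilin PKP3 from 54.0 ± 6.8 to 30.7 ± 2.8 and 21.3 ± 0.9 CPM (-0.81 ± 0.10 and -1.34 ± 0.10; SD, n = 3 for each level). PKP3 (-0.53 ± 0.10, adjusted p = 0.00508) and the scaffold TJP1 (-0.34 ± 0.09, adjusted p = 0.0236) were lower in the combination than in decitabine alone.

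Of 14 regulators of the epithelial state, 11 were tested. With decitabine 9 were higher and 0 lower (81.8% and 0%, beside 36.3% and 32.5% of all genes). With the combination 8 were higher and 0 lower (72.7% and 0%, beside 35.9% and 31.3%). The median log2 fold changes were 1.81 and 1.80. GRHL2, GRHL3, OVOL2 and ST14 averaged 1.33, 1.33, 1.67 and 7.33 counts in the controls and passed the low-count filter through their treated libraries. A call of higher was thus nearly fixed in advance for these genes. At an unadjusted p under 0.05 edgeR counted 0 and 1 lower, and DESeq2 and voom with limma each called 0 lower. GRHL3, a grainyhead factor, rose from 0.066 ± 0.029 CPM, an average of 1.33 counts, to 1.32 ± 0.15 and 2.17 ± 0.48 CPM (4.21 ± 0.43 and 4.92 ± 0.41). The membrane protease ST14 rose from 0.363 ± 0.242 to 3.73 ± 1.19 and 4.49 ± 1.51 CPM (3.34 ± 0.43 and 3.61 ± 0.42). ESRP2, the paralog of ESRP1, was higher with decitabine (0.40 ± 0.07, adjusted p = 0.000226) but not called with the combination (0.04 ± 0.07, adjusted p = 0.639), and the treatments differed by -0.36 ± 0.07 (adjusted p = 0.00645). GRHL1, another grainyhead factor, also differed between them (-0.45 ± 0.12, adjusted p = 0.0193). The host genes of the miR-200c and miR-205 microRNAs, which are known to restrain the ZEB factors, had at most 4 counts in a library and were not tested.

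Of 20 mesenchymal genes, 18 were tested. With decitabine 12 rose and 3 fell (66.7% and 16.7%, beside 36.3% and 32.5% of all genes). With the combination 11 rose and 4 fell (61.1% and 22.2%, beside 35.9% and 31.3%). The median log2 fold changes were 1.22 and 1.04. The collagen I chains moved most, COL1A2 from 0.614 ± 0.322 to 45.7 ± 8.0 and 33.2 ± 6.2 CPM (6.21 ± 0.29 and 5.75 ± 0.29) and COL1A1 from 2.98 ± 0.72 to 57.6 ± 13.4 and 47.2 ± 9.8 CPM (4.27 ± 0.27 and 3.98 ± 0.27). The matrix protein TNC fell from 243.1 ± 49.9 to 107.4 ± 10.2 and 82.7 ± 15.5 CPM (-1.18 ± 0.18 and -1.55 ± 0.18), as did the receptor kinase AXL from 193.2 ± 14.5 to 98.0 ± 7.8 and 83.7 ± 11.6 CPM (-0.98 ± 0.10 and -1.21 ± 0.10).

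Other cell types were followed beside these matrix genes. Of 6 fibroblast markers, DCN, LUM, PDGFRA, PDGFRB, COL3A1 and FAP, the sum lay at 3.36 to 3.90 CPM in control libraries, 15.8 to 17.2 in decitabine libraries and 16.3 to 22.8 in combination libraries. LUM (0.0987 to 0.15 CPM in the controls, 5.09 to 7.2 in the treated libraries) and PDGFRA (1.29 to 1.6 and 5.27 to 11.5 CPM) made up most of the difference. PDGFRB (0.346 to 0.596 and 0.295 to 0.522 CPM) and COL3A1 (1.43 to 1.74 and 1.06 to 4.53 CPM) overlapped the controls. DCN was at 0 to 0.10 CPM and FAP at 0 in the controls. The sum of the endothelial PECAM1, CDH5 and VWF ran from 9.88 to 10.6, 31.0 to 41.7 and 36.6 to 43.8 CPM, nearly all of it PECAM1, and that of the leukocyte genes PTPRC, CD3E and CD14 from 0.199 to 0.300, 1.52 to 1.94 and 1.28 to 1.75 CPM. The part of such cells or of such genes in the results was not tested.

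Of 14 other transcription factors linked to EMT, 10 were tested. With decitabine 5 rose and 3 fell, and with the combination 6 rose and 2 fell (median log2 0.35 and 0.58). Of all genes, 36.3% were higher and 32.5% lower with decitabine, and 35.9% and 31.3% with the combination. The difference between this list and all genes was not tested. Scaled by library size alone, 6 of the 10 were higher and 1 lower in both contrasts. FOXC2, a forkhead factor, rose from 0.066 ± 0.057 CPM, an average of 1.33 counts, to 4.59 ± 0.68 and 6.16 ± 0.42 CPM (6.0 ± 0.37 and 6.42 ± 0.36). PRRX1, also counted as higher in both contrasts, averaged 0 counts in the controls. FOXC2 and PRRX1 passed the low-count filter through their treated libraries. A call of higher was thus nearly fixed in advance for both genes. The chromatin protein HMGA2 fell (-0.82 ± 0.07 and -0.71 ± 0.07), and so did the E-protein gene TCF3 (-0.25 ± 0.07 and -0.16 ± 0.07, adjusted p = 0.00316 and 0.0405), whose calls were lost with library size alone (-0.01 and 0.06, adjusted p = 0.911 and 0.421). SOX4 was higher in the combination than in decitabine alone (0.38 ± 0.08, adjusted p = 0.00721).

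The TGF-beta and BMP pathway, a known inducer of EMT, had 15 of 16 genes tested. With decitabine 7 were higher and 6 lower, and with the combination 7 were higher and 3 lower (median log2 0.14 and 0.11). Beside these counts, 36.3% of all genes were higher and 32.5% lower with decitabine, and 35.9% and 31.3% with the combination. Whether the pathway differed from all genes was not tested. Scaled by library size alone, 8 of the 15 were higher and 3 lower with decitabine and 9 higher and 2 lower with the combination. Among the ligands, TGFB2 rose from 4.96 ± 1.24 to 42.6 ± 5.5 and 35.5 ± 9.4 CPM (3.10 ± 0.23 and 2.84 ± 0.23) and BMP4 from 4.65 ± 1.20 to 32.4 ± 8.1 and 19.8 ± 7.5 CPM (2.80 ± 0.37 and 2.09 ± 0.37). TGFB1 was at 90.7 ± 3.8, 76.9 ± 2.3 and 92.9 ± 2.4 CPM and differed between the treatments (0.27 ± 0.06, adjusted p = 0.0135). The receptor TGFBR2 fell in both contrasts (-0.43 ± 0.07 and -0.74 ± 0.07) and between the treatments (-0.32 ± 0.07, adjusted p = 0.0109). SKI, a repressor of SMAD proteins, fell by 0.61 and 0.59 on the log2 scale.

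The last list held 11 co-repressors and turnover factors through which SNAI and ZEB proteins are known to act or be degraded. Of these, 9 were lower and 0 higher in both contrasts by edgeR (median log2 -0.36 and -0.34). The lower genes were 81.8% of the list in both, beside 32.5% and 31.3% of all genes. At an unadjusted p under 0.05, by DESeq2 and by voom with limma 0 were higher as well. But scaled by library size alone 5 were lower and 2 higher with decitabine, and 3 were lower and 2 higher with the combination. The deacetylase HDAC1 fell from 318.3 ± 15.9 to 163.9 ± 16.9 and 154.8 ± 3.2 CPM (-0.96 ± 0.08 and -1.04 ± 0.08) and CTBP1, a co-repressor bound by ZEB1, from 201.2 ± 1.9 to 111.6 ± 5.3 and 101.8 ± 4.5 CPM (-0.85 ± 0.07 and -0.98 ± 0.07). Between the treatments 0 of the 11 genes were called by edgeR, DESeq2 or voom with limma, and 1 was higher at an unadjusted p under 0.05.

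**Figure D4:**
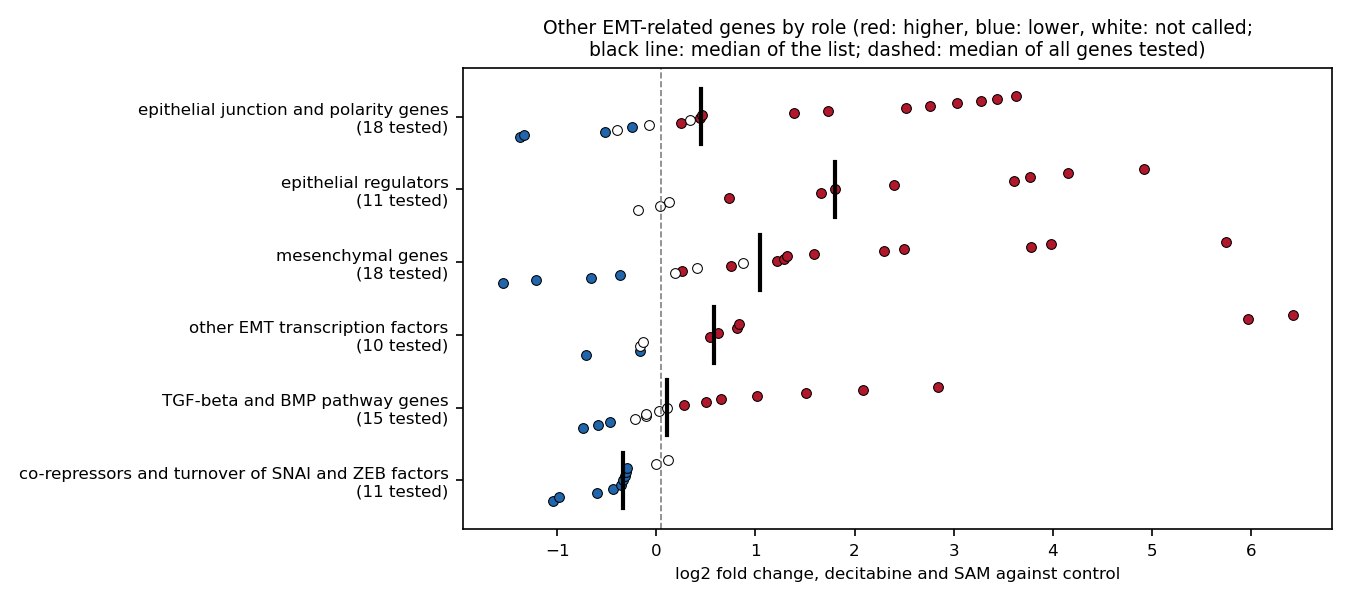
Log2 fold changes of the 83 further EMT-related genes tested, decitabine and SAM against control (x axis), by role (rows); red points were called higher, blue lower and white neither (edgeR, adjusted p under 0.05), the black line is the median of the list and the dashed line that of all genes. The lists of epithelial regulators (median 1.80) and mesenchymal genes (1.04) both lie mostly to the right. Several of the epithelial regulators passed the low-count filter only through treated libraries. Of 11 co-repressors and turnover factors, 9 lie to the left as called genes. Scaled by library size alone, 3 of the 11 were called lower and 2 higher.

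Over the 9 libraries, the genes whose log2 CPM ran most alike with a member were noted as a description, among 14321 genes that averaged 50 counts or more in some group. For CDH1 these were GPX3, AP1M2 and TMEM88 (Pearson's r = 0.998 each), for CDH2 PHLDB2, FBXL13 and EPHB6 (0.998, 0.998 and 0.997), for VIM VPS52, TSPEAR and EFL1 (0.998, 0.998 and 0.997) and for FN1 NFE2L3, PSG9 and SLC35F6 (0.997, 0.996 and 0.996). For SNAI1 they were RGS9, NKX2-1 and ITGB7 (0.997, 0.993 and 0.993), for ZEB2 TPM3P9, GRASLND and KLK5 (0.997, 0.995 and 0.995), and for ESRP1 EIF2S3B, SCUBE3 and WTIP (0.991, 0.989 and 0.983). For ZEB1 they were EIF4G1, DCAF5 and TG (0.989, 0.988 and 0.985), for SNAI2 FZR1, RAB40C and ACTRT3 (0.977, 0.969 and 0.968) and for TWIST1 LARP1B, YIPF4 and KLF5 (0.932, 0.913 and 0.900). All points share the step between control and treated libraries, so high values were common, with r over 0.95 for 1648 genes in the case of CDH1 and for none in that of TWIST1.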

How the data were processed

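RNA-seq of 9 PC-3 libraries was analysed, 3 groups of 3 by the treatment label. According to the study, reads were trimmed with TrimGalore (0.6.4) and counted with kallisto against GRCh38. The values the authors deposited are estimated counts per Ensembl gene, neither scaled nor whole; they were rounded here. Their log2 CPM were not used. Gene names and exon lengths came from GENCODE 44.

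Counts were fitted with edgeR (4.0.16) in R (4.3.3): filterByExpr, TMM scaling, quasi-likelihood, 1 mean per group over all 9 libraries, and Benjamini-Hochberg adjustment over 18532 genes at 0.05. The fit had been tested on simulated counts in which few genes changed, evenly up and down. In these data most genes were called, so that test does not bear on the scaling between the groups. CPM use the same scaling. Ratios had 0.5 counts added to each gene. Totals of 21934307 to 22489684 counts per library limit precision mainly for genes of few counts, and no pair of replicates was a copy (chi-square per degree of freedom 5.86 to 23.5).

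The members and lists were chosen with earlier results of these data known. Named besides the 10 members were, from each list, the 2 genes called higher and the 2 called lower with the largest fold changes in the combination against control (group average of 50 counts or more, no overlap), genes called between the treatments, and the 3 most alike genes per member. A few single genes that this rule or the marker check would name are left out of the text. Alternatives were DESeq2 (1.42.0) and its size factors, library size alone, voom and limma (3.58.1), omitting the filter, keeping genes that averaged 10 counts or more, fitting the 6 libraries of a contrast alone, a replicate block, a log2 fold change over 1, and leaving out each library.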

Additional observations from a re-analysis of the deposited data

Results flagged for a closer look

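Of the 10 EMT genes, only FN1 differed between decitabine with SAM and decitabine alone by a test of the difference itself. The difference was -0.52 on the log2 scale (standard error 0.16, edgeR adjusted p = 0.0496), and the call was kept in only 8 of 17 alternative settings. All 3 combination libraries, at 204.9 to 326.5 CPM of FN1, lay below all 3 decitabine libraries, at 335.7 to 428.2 CPM. Of the 83 further genes tested, 2 were called higher and 6 lower in the same contrast. Groups of 3 libraries were too small to be tested for a single library that stood apart.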

How the results depend on the processing

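Against the control, the direction of each EMT gene was the same under all 17 alternatives, and the calls of CDH1, ESRP1, CDH2, VIM, FN1, SNAI1, SNAI2 and ZEB2 were kept in all of them; ZEB1 and TWIST1 changed as described. Of 510 alternative fold changes of members over the 3 contrasts, 484 kept direction and side of the threshold, 10 lost the call, 14 gained it and 2 changed sign; these 2 were SNAI2 between the treatments (0.03 without replicate 3 of either treatment, and -0.12 to 0.03 over all libraries left out). The 9 ratios kept their direction in all 63 alternatives. Asking for a log2 fold change over 1 left 4208 genes higher and 1139 lower with decitabine, 3962 and 1216 with the combination, and 74 and 323 between the treatments. The members called lower were then 1, 1 and 0, and the wider list genes called lower 2, 5 and 1, with 0 of these higher between the treatments. Library size alone gave 3746 lower genes with decitabine and 3857 with the combination, and 15 and 12 lower genes of the wider lists. It also moved the share of called genes that were higher from 52.7% to 70.3% and from 53.4% to 69.3%.

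Between the treatments, calls depended on 1 library more than against the control. Leaving out each library in turn gave 381 to 2066 genes higher and 480 to 1997 lower, 0 to 1 members higher, 0 to 3 members lower, 1 to 6 wider list genes higher and 1 to 15 lower. The lowest count of genes came without decitabine_SAM replicate 2 and the highest without decitabine_SAM replicate 3. Members called lower were 2 (FN1 and ZEB1) with DESeq2, its size factors, no filter, genes that averaged 10 counts or more or a replicate block, and 0 when the 6 libraries were fitted alone. With no filter 1 member (SNAI1) was higher, and 5 wider list genes were higher and 10 lower. With the replicate block 7 wider list genes were higher and 14 lower. Deviations of same-numbered libraries correlated at 0.233, 0.0359 and 0.229 between the treatments, above those of differently numbered libraries, at -0.22 to 0.0141. With the controls, same-numbered libraries correlated at -0.0165 to 0.0694 and the others at -0.0789 to 0.0579. Whether replicates of the same number shared a culture or a batch is not in the labels and was not tested. The causes of these changes were not tested.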
